A study of Danio rerio with 4 samples.

Results

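The gluconeogenesis genes examined here were *pck1*, *pck2*, *g6pca*, *g6pcb*, *fbp1a* and *fbp1b*, taken from the deposited table of transcripts by an exact match of the gene symbol. Each of the 6 symbols had 1 row among the 27423 rows of the table, and 5 of the 6 reached an estimated count of 100 in every library, as did 13633 rows in all. The set was chosen by gene name with some of its values already known, namely the mutant to sibling ratios of *pck1* and *g6pca*. These ratios are therefore given as a description, with no test.

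The study compared pools of whole zebrafish embryos, sampled at 48 hpf, between 2 mutants with rounded epidermal cells and their siblings. The 4 groups had 1 library each. The *gsp* mutants (*goosepimples*, genotype Myovb(-/-)) are homozygous in every tissue for a mutation of the motor protein Myosin Vb, and the *rhs* mutants (*romeharsha*(-/-)) carry a lesion whose molecular nature the study gives as unknown. The *gsp* siblings and the *rhs* siblings are each a mixture of heterozygous and homozygous wild-type embryos of the same crosses, so both controls hold carriers of the allele. The labels give 20 embryos per group from 3 clutches per mutant, and the methods of the study give another number. With 1 pooled library per group there is no spread between replicates, and each ratio below carries only a 95% interval for counting error, computed as an exact Clopper-Pearson interval. RNA of every tissue was mixed, so more cells of a type and more RNA per cell cannot be told apart.

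Gluconeogenesis makes glucose from lactate, amino acids and glycerol. It uses the reversible enzymes of glycolysis and bypasses the irreversible steps with its own enzymes. Phosphoenolpyruvate carboxykinase turns oxaloacetate into phosphoenolpyruvate, fructose bisphosphatase removes a phosphate from fructose bisphosphate, and glucose-6-phosphatase releases free glucose inside the endoplasmic reticulum. In vertebrates the pathway is best known in liver and kidney, where fasting, glucagon and glucocorticoids raise the transcription of *pck1* and of the catalytic subunit of glucose-6-phosphatase and insulin lowers it.

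The total estimated count per library lay between 106188690 and 118680429. The values are not scaled between libraries, and the median log2 ratio of mutant to sibling over the 13633 rows was -0.11 in *gsp* and -0.20 in *rhs*. Between the siblings of the 2 lines, log2 ratios had an SD of 0.73. For each mutant against its own sibling the SD was smaller, at 0.42 (*gsp*) and 0.50 (*rhs*). Counted as rows at least 1.5-fold apart, the siblings (17.7%) did not stand clear of the *rhs* pair (6.14% higher and 11.6% lower). Fewer rows were that far apart in the *gsp* pair (4.8% higher and 4.34% lower). A difference between the lines therefore stands beside a wide difference between their controls. The lowest possible value in the table is 1, and 9935 rows (36.2%) were at that floor in all 4 libraries. *myo5b*, the gene mutated in *gsp*, lay at the floor for mutant and sibling of its own line, against 193 (mutant) and 87.8 (sibling) in *rhs*, and so gives no check of the *gsp* labels.

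Of the 5 gluconeogenesis genes at 100 or more, *pck1* and *g6pca* exceeded the sibling by 1.5-fold or more in both mutants, and the other 3 stayed within 1.5-fold of the sibling in both lines. None was at least 1.5-fold lower in either mutant. Beside these counts, 4.8% of all 13633 rows were at least 1.5-fold higher in *gsp* and 4.34% lower, 6.14% were higher in *rhs* and 11.6% lower, and 3.39% were higher in both. Since values of these contrasts were known when the genes were chosen, nothing is read from the comparison with those shares. The 3 enzymatic steps thus each had a different picture. Both carboxykinases were higher in both mutants, but by very different amounts. Of the fructose bisphosphatases, *fbp1b* differed mostly between the lines, and *fbp1a* was lowest in the *gsp* mutant. Of the 2 glucose-6-phosphatase symbols, 1 was higher and 1 was at the floor.

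**Figure D1:**
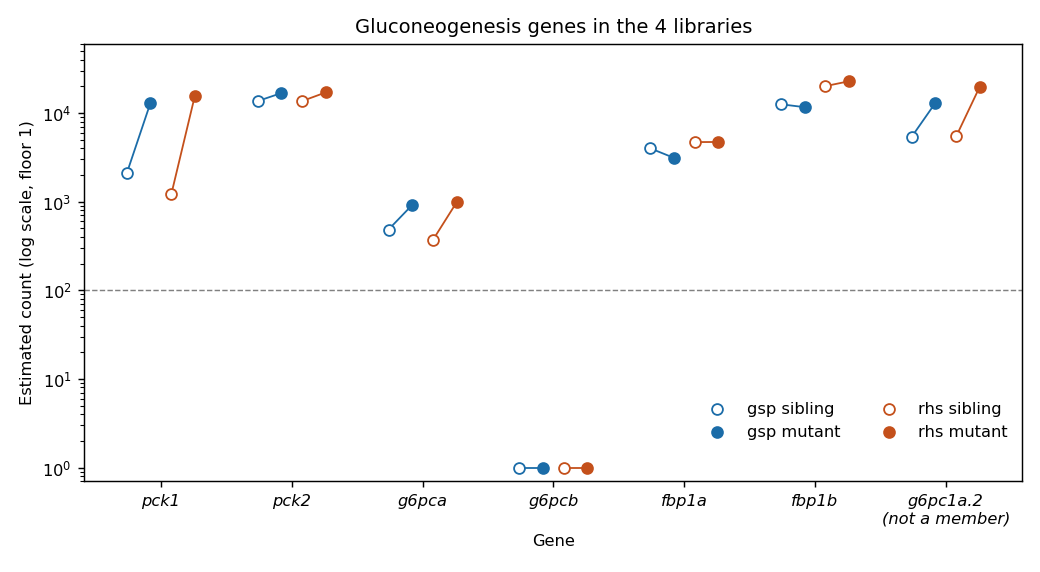
Estimated count of each gluconeogenesis gene in the 4 libraries on a log axis, with lines joining sibling and mutant of a line and the dashed line at 100. *pck1* and *g6pca* are higher in both mutants than in both siblings, *g6pcb* lies at the floor of 1 in every library, and *fbp1b* separates the *rhs* pair from the *gsp* pair.

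*pck1* encodes the cytosolic phosphoenolpyruvate carboxykinase, which commits carbon to glucose synthesis and is a common readout of fasting in zebrafish larvae. It lies on the plus strand of chromosome 6 of danRer7, from 59719200 to 59726056 (Entrez 378727). Its estimated count was 2106 in the *gsp* sibling and 12969.8 in the *gsp* mutant. It was 1219 in the *rhs* sibling and 15714 in the *rhs* mutant. Both mutant libraries were far above both sibling libraries, and the mutants were closer to each other (1.21-fold apart) than the siblings were. The ratio was 6.16 in *gsp* (95% counting interval 5.88 to 6.45), the 27th highest of 13633 rows, and 12.9 in *rhs* (12.2 to 13.7), the 14th highest.

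The larger ratio of *pck1* in *rhs* came with a lower value in its control. The *gsp* sibling had 1.73 times the *rhs* sibling (1.61 to 1.86), and 12.4% of all rows had siblings further apart. On the log2 scale the response in *rhs* exceeded that in *gsp* by 1.07, of which 0.79 is the difference between the siblings and the rest that between the mutants. Taken as counts gained rather than as ratios, the mutants were nearer to each other, with 10864 more in *gsp* and 14495 more in *rhs*. With the sibling of the other line as the control, the ratio of *pck1* became 10.6 in *gsp* and 7.46 in *rhs*, so that the order of the lines turned. The difference between the lines was not tested. No other row of the table overlaps *pck1*, and the 6 neighbouring genes within 60 kb that reached 100 ranged in ratio between 0.468 and 1.53 in *gsp* and between 0.620 and 1.42 in *rhs*. The highest of these belonged to *slmo2*, at 1.53 and 1.42.

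*pck2* encodes the mitochondrial form of the same enzyme and lies on the minus strand of chromosome 24 from 12824153 to 12842687 (Entrez 406473). Its estimated count was 13614 in the *gsp* sibling, 16744 in the *gsp* mutant, 13629 in the *rhs* sibling and 17056 in the *rhs* mutant. The 2 siblings were almost equal, with a ratio of 0.999 (0.975 to 1.02), and 99.7% of all rows had siblings further apart. Both mutants were modestly above them, by 1.23-fold in *gsp* (1.20 to 1.26) and 1.25-fold in *rhs* (1.22 to 1.28). With ratios centred on the median of all rows these became 1.33 and 1.44, still under 1.5-fold. The cytosolic and the mitochondrial gene thus shared a direction in both lines, while the ratio of *pck1* was several times that of *pck2*.

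The fructose bisphosphatases act at the middle bypass. *fbp1a* lies on the minus strand of chromosome 5 from 46451895 to 46462230 (Entrez 335231). The estimated count of *fbp1a* was 3995 in the *gsp* sibling, 3123 in the *gsp* mutant, 4694 in the *rhs* sibling and 4705 in the *rhs* mutant. It was lower in the *gsp* mutant than in the other 3 libraries, with a ratio of 0.782 (0.746 to 0.819), and nearly equal within the *rhs* line, at 1.002 (0.962 to 1.04). The siblings were 1.18-fold apart and the mutants 1.51-fold.

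*fbp1b*, the other zebrafish copy, lies on the plus strand of the same chromosome from 37076138 to 37080012 (Entrez 282672). Its estimated count was 12536 in the *gsp* sibling, 11628 in the *gsp* mutant, 20086 in the *rhs* sibling and 22793 in the *rhs* mutant. Both *rhs* libraries were above both *gsp* libraries, whatever the genotype. The ratio was 0.928 in *gsp* (0.904 to 0.951) and 1.13 in *rhs* (1.11 to 1.16), while the *gsp* sibling had 0.624 times the *rhs* sibling (0.610 to 0.638) and the mutants were 1.96-fold apart. The position of *gsp* below 1 depended on the scaling, since the ratio was 1.0003 with median-centred values and 1.01 after division by the library total. Against the *rhs* sibling, *fbp1a* and *fbp1b* in the *gsp* mutant would be 0.665 and 0.579 times the control.

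Another gene of this family, *fbp2*, is the muscle-type fructose bisphosphatase of mammals and lies 3694 bp from *fbp1a* on the same strand. It is not one of the 6 genes. Its estimated count was 3240 in the *gsp* sibling, 2895 in the *gsp* mutant, 2110 in the *rhs* sibling and 1155 in the *rhs* mutant. The ratio was 0.893 in *gsp* (0.850 to 0.940) and 0.547 in *rhs* (0.509 to 0.588). Of 6 skeletal muscle markers 2 were at least 1.5-fold lower in *rhs* (*tnnt3b* at 0.622 and *acta1b* at 0.657), but 0 with median-centred ratios. Over all rows 11.6% were that much lower in *rhs* unscaled, so nothing about the list is read from this count. The summed estimated count of the muscle list was 0.730 times the sibling in *rhs* and 1.21 times in *gsp*, where *fbp2* was below 1. The single muscle markers ranged from 0.877 (*mylz2*) to 1.72 (*ckma*) in *gsp*. The part of muscle RNA in the value of *fbp2* was not tested. How reads shared between *fbp1a* and *fbp2*, or between other near-identical copies, were assigned is not given in the sources used here.

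The last step is made by the catalytic subunit of glucose-6-phosphatase. *g6pca*, named g6pc1a.1 in RefSeq, lies on the minus strand of chromosome 12 from 6706992 to 6717274 (Entrez 445118). *g6pca* had an estimated count of 484 in the *gsp* sibling, 913 in the *gsp* mutant, 370.4 in the *rhs* sibling and 979 in the *rhs* mutant. As for *pck1*, both mutants were above both siblings, the *rhs* sibling was the lowest library and the *rhs* mutant the highest. The ratio was 1.89 in *gsp* (1.69 to 2.11) and 2.64 in *rhs* (2.35 to 2.99), at positions 306 and 185 of 13633 from the highest. The siblings were 1.31-fold apart (1.14 to 1.502), nearer than in 30.0% of all rows, and the mutants 1.07-fold.

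*g6pcb*, named g6pc1b in RefSeq, lies on the minus strand of chromosome 3 from 33043058 to 33049763 (Entrez 100000750). It was listed at the floor of 1 in all 4 libraries, so no ratio is given and nothing is said of its response. Of its neighbours within 60 kb, 7 reached 100 in every library, so the floor did not extend over the region.

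A further glucose-6-phosphatase row was found beside *g6pca* and was singled out after its values were seen. It carries the clone name *si:ch211-215l11.5* and the RefSeq name g6pc1a.2, and lies 7783 bp from *g6pca* on the opposite strand, from 6725058 to 6731782. Its estimated count was 5400.01 in the *gsp* sibling, 12963 in the *gsp* mutant, 5463 in the *rhs* sibling and 19811 in the *rhs* mutant. The siblings of *si:ch211-215l11.5* were nearly equal, at a ratio of 0.988 (0.952 to 1.03), and both mutants were above them by 2.40-fold in *gsp* (2.33 to 2.48) and 3.63-fold in *rhs* (3.52 to 3.74). The *rhs* mutant was the higher of the mutants, as for *pck1*, and the mutants were 1.53-fold apart. The other neighbours of *g6pca* within 60 kb did not share its direction in both lines: *myst2* had 1.04 and 0.872, *LOC566751* 0.611 and 0.911, and *aarsd1* 0.821 and 0.676 in *gsp* and *rhs*. Counted with the 5 genes, *si:ch211-215l11.5* makes 3 past 1.5-fold on the higher side in both mutants.

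**Figure D2:**
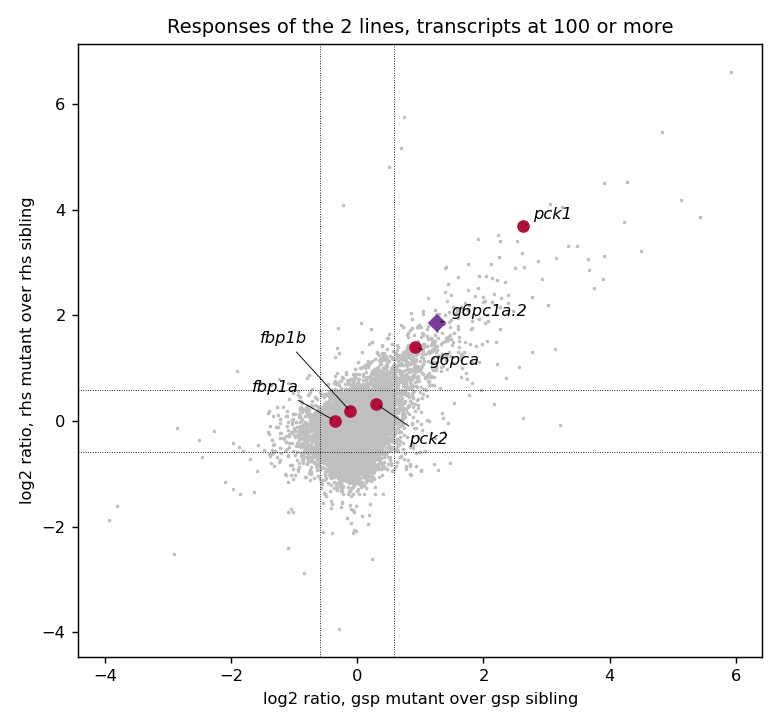
Log2 ratio of mutant to sibling in *rhs* against that in *gsp* for the 13633 rows at 100 or more (grey), with the 5 measured gluconeogenesis genes in red, g6pc1a.2 as a purple diamond and dotted lines at 1.5-fold. *pck1* lies at 2.62 and 3.69, g6pc1a.2 and *g6pca* lie beyond the threshold on both axes, and *pck2*, *fbp1a* and *fbp1b* lie inside it.

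The difference between the 2 siblings set which genes pass the filters of the study, which leave out rows whose siblings or mutants are far apart. *pck1* (1.73-fold apart) and *fbp1b* (1.60-fold) exceeded 1.5-fold between siblings, as did 17.7% of all rows, while *g6pca*, *fbp1a* and *pck2* did not. The mutants were within 2-fold of each other for all 5 genes, with *fbp1b* nearest to that limit. With both filters *g6pca* was left as the 1 gene at least 1.5-fold higher in either mutant, and *pck1*, the gene with the largest ratio of the 5 in each line, was removed by the siblings alone.

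The genes that carry carbon between the bypasses are given here as a description. The reversible enzymes, from glucose phosphate isomerase to enolase, had 19 measured rows. Of these, 0 were at least 1.5-fold higher in either mutant (1 in *gsp* with median-centred ratios, the isomerase *gpib* at 1.58). In *rhs* 2 were lower, the neuronal enolase *eno2* (0.533) and *zgc:153973*, named eno4 in RefSeq (0.636). After median centring only *eno2* (0.611) stayed past the threshold in *rhs*, while *zgc:153973* moved inside it, to 0.730. Without centring, 4.8% of all rows were higher in *gsp*, and 6.14% were higher and 11.6% lower in *rhs*. Nothing about the list is therefore read from these counts. The phosphoglycerate mutases *pgam1b* (0.870 in *gsp* and 0.709 in *rhs*) and *pgam2* (0.905 and 0.737) stayed within the threshold. The median log2 ratio of the list was 0.06 in *gsp* and -0.33 in *rhs*, beside -0.11 and -0.20 over all rows.

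The list of irreversible enzymes of glycolysis, which run the opposing reactions, had more members above the threshold in *gsp* than the reversible list. It also held *pfkfb* genes, which act on a regulator of phosphofructokinase and run no step themselves. Of the rows past the threshold, *pfkfb3* and *pfkfb4l* are of this kind. Of 15 measured, 5 were at least 1.5-fold higher in *gsp* and 0 lower, and 2 were higher and 2 lower in *rhs*, which median centring of the ratios turned into 3 and 1. Beside these, 4.8% of all rows were higher and 4.34% lower in *gsp*, and 6.14% were higher and 11.6% lower in *rhs*. As the list was chosen with earlier results of these data known, nothing about it is read from these counts. The pair higher in both were *hk2*, a hexokinase that traps glucose in the cell (2.39 in *gsp*, 2.24 to 2.55, and 1.95 in *rhs*, 1.84 to 2.07), and *pfkfb3*, which makes the allosteric activator of phosphofructokinase (2.26, 2.10 to 2.44, and 2.78, 2.59 to 2.99). *pfkfb4l* was higher in *gsp* (1.57) and at 1.27 in *rhs*, and *pfkfb4* was at 0.758 and 0.701. The muscle phosphofructokinase *pfkma* was above the threshold in *gsp* (1.91) and below it in *rhs* (0.659), and *pfkmb* was at 1.55 in *gsp*, while *pkm2b* was at 0.578 in *rhs*. Muscle creatine kinase *ckma* had the same order of lines as *pfkma*, at 1.72 and 0.807. It was the highest muscle marker in *gsp*, where the lowest, *mylz2*, was at 0.877. The part of muscle RNA was not tested. *pklr*, the pyruvate kinase of liver and red cells, differed little within the lines (1.17 and 1.32) but its siblings were 4.39-fold apart.

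Of 28 measured genes that bring carbon into the pathway, 1 exceeded 1.5-fold in both mutants. It was *gpd2*, the mitochondrial glycerol-3-phosphate dehydrogenase (1.70 in *gsp*, 1.51 to 1.91, and 1.63 in *rhs*, 1.45 to 1.85). Over all rows 3.39% were higher in both, so nothing about the list is read from this count. Of the cytosolic forms, *gpd1a* was at 1.01 in *gsp* and 0.584 in *rhs*, *gpd1b* at 0.903 and 1.03, and *gpd1* (gpd1c in RefSeq) at 0.886 and 1.24. Elsewhere in the list, *zgc:153922* (mdh1b in RefSeq) was at 0.608 and 0.934, and the mitochondrial oxoglutarate carrier *slc25a11* was at 0.867 and 0.732. Pyruvate carboxylase supplies the oxaloacetate that phosphoenolpyruvate carboxykinase uses. Of its genes, *pc* (pcxb in RefSeq) had estimated counts of 4317 in the *gsp* sibling, 4025 in the *gsp* mutant, 9772 in the *rhs* sibling and 13418 in the *rhs* mutant. Like *fbp1b*, *pc* was higher in both *rhs* libraries, with siblings 2.26-fold apart and ratios of 0.932 in *gsp* and 1.37 in *rhs*. The other copy, *pcl* (pcxa in RefSeq), did not share this. Its siblings were 1.01-fold apart and its ratios were 0.877 in *gsp* and 1.05 in *rhs*.

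Of 14 measured genes of glucose-6-phosphate transport, glycogen and glucose export, 0 were higher in both mutants (1 with median-centred ratios, *slc2a1b*). The glycogen phosphorylase of muscle, *pygma*, was higher in *gsp* (2.34) and at 0.804 in *rhs*. Of the glucose transporters, *slc2a1b* was at 1.43 in *gsp* and 1.51 in *rhs*, and *slc2a2* was at 0.681 and 1.09. Glycogen synthase *gys1* was lower in *rhs* (0.653), where *fbp2* was the other gene below the threshold. With median-centred ratios *gys1* moved inside the threshold, to 0.749, and *fbp2* stayed past it, at 0.628. Over all rows, unscaled, 3.39% were higher in both mutants and 11.6% were lower in *rhs*. Nothing about the list is therefore read from these counts. Liver glycogen phosphorylase *pygl* was at 0.990 and 1.26, with siblings 2.32-fold apart. The transporter that brings glucose-6-phosphate to its phosphatase is encoded by *slc37a4a* and its relatives. *slc37a4a* was at 0.995 in *gsp* and 1.32 in *rhs*, *slc37a4b* was at the floor in all 4 libraries, and a further row, *slc37a4*, was 25.3-fold higher in the *gsp* sibling than in the *rhs* sibling (4439 against 175), with ratios of 0.835 and 0.701 within the lines. *zgc:158425*, g6pc3 in RefSeq and the ubiquitous phosphatase of the family, was at 0.933 and 0.957.

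**Figure D3:**
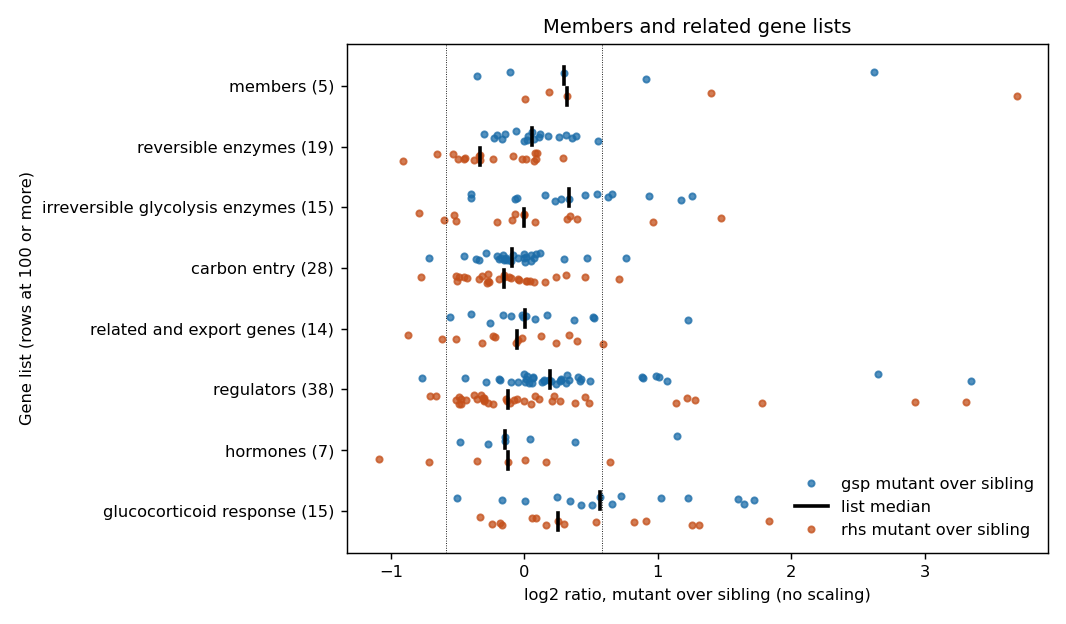
Log2 ratio of mutant to sibling, unscaled, for each measured gene of the gluconeogenesis set and of 7 related lists, *gsp* in blue and *rhs* in orange, with the list median as a black bar, the number measured in brackets and dotted lines at 1.5-fold. The reversible enzymes lie inside 1.5-fold on the higher side, and the glucocorticoid response list has its median at 0.57 in *gsp* and 0.25 in *rhs*.

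Among 38 measured regulators of the pathway, 7 were at least 1.5-fold higher and 1 lower in *gsp*, and 6 were higher and 2 lower in *rhs*. The 6 higher in *rhs* were all higher in *gsp* as well. Of all rows, 4.8% were higher and 4.34% lower in *gsp*, 6.14% were higher and 11.6% lower in *rhs*, and 3.39% were higher in both. The list was chosen with earlier results of these data known, so nothing is read from that comparison. The C/EBP transcription factors bind the *pck1* promoter in mammals. *cebpb* had an estimated count of 4236 in the *gsp* sibling, 43058 in the *gsp* mutant, 4149 in the *rhs* sibling and 41216 in the *rhs* mutant. Its siblings were nearly equal (ratio 1.02) and its ratios were 10.16 in *gsp* (9.85 to 10.5) and 9.93 in *rhs* (9.62 to 10.3). *cebpd* was at 6.27 and 7.60 and *cebpa* at 1.84 and 2.33.

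The other regulators higher in both act on hormone signalling. *sik1*, a row with a clone name in the table, encodes a kinase that restrains the CREB coactivators, and was at 2.01 in *gsp* and 3.43 in *rhs*. Its siblings were 1.90-fold apart, in the same direction as those of *pck1*. *trib3*, an inhibitor of Akt in mammals, was at 2.10 and 2.42, and *zgc:56306* (irs2a in RefSeq), an insulin receptor substrate, at 1.98 and 2.20. *foxo1a*, the forkhead factor through which insulin represses the pathway, was at 1.85 in *gsp* and 1.06 in *rhs*. The genes on the lower side were *pparaa* in *gsp* (0.588), and *foxo3a* (0.612) and *si:ch211-206a7.2* (foxo6b in RefSeq, 0.632) in *rhs*, where 0 were lower with median-centred ratios. *sirt1* and *ppargc1b* had siblings far apart, with the *gsp* sibling at 0.200 and 0.327 times the *rhs* sibling. A further 10 rows of the list were at the floor in all libraries.

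For the hormones, transcripts were measured and not hormone levels, and the list also held the receptor gene *lepr*. Insulin (*ins*) was at 0.904 in *gsp* and 0.918 in *rhs*, and the glucagon genes *gcga* and *gcgb* were at 0.715 and 0.782, and at 0.826 and 1.12. Of 7 measured rows 1 was higher in *gsp*, the pituitary hormone *prl* (2.21, against 1.01 in *rhs*). In *rhs* the leptin receptor *lepr* was higher (1.56, against 1.30 in *gsp*), and *pomca*, the precursor of corticotropin (0.469), and *uts1* (0.611) were lower. With median-centred ratios only *pomca* stayed past the threshold on the lower side in *rhs*, and *uts1* moved inside it. Unscaled, 4.8% of all rows were higher and 4.34% lower in *gsp*, and 6.14% were higher and 11.6% lower in *rhs*. Nothing about the list is therefore read from these counts. The leptins were under 100 in some or all libraries. *lepb* was listed at 1 in both siblings, 14.4 in the *gsp* mutant and 174 in the *rhs* mutant, and *lepa* at 2.74 in the *gsp* sibling, 7.18 in the *rhs* sibling, 7.06 in the *gsp* mutant and 144 in the *rhs* mutant.

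The list of glucocorticoid response genes had the largest share above the threshold of the 7 lists in *gsp*. It also held genes of the receptors (*nr3c1* and *nr3c2*) and of the synthesis and breakdown of the hormone (*star* and *hsd11b2*). Of 15 measured, 7 were at least 1.5-fold higher in *gsp* and 5 in *rhs*, 5 of them in both, and 0 were lower. Over all rows 4.8% were higher in *gsp*, 6.14% in *rhs* and 3.39% in both. The 7 lists were chosen with earlier results of these data known, so nothing is read from these shares or from the order of the lists. Over 4 other scalings the count lay between 7 and 9 in *gsp* and was 6 in *rhs*. The 5 were *klf9* (3.03 and 2.48), *fkbp5*, a chaperone of the glucocorticoid receptor (3.29 and 1.88), the phosphatase *dusp1* (3.12 and 1.77), *pdk2*, a kinase that limits the oxidation of pyruvate (2.34 and 3.56), and the kinase *sgk1* (2.03 and 2.39). *per1a* (1.65) and *si:rp71-57j15.4* (pdk4 in RefSeq, 1.58) were the others in *gsp*. The siblings differed here too, with the *gsp* sibling at 0.510 times the *rhs* sibling for *fkbp5* and at 0.304 times for *per1b*. Other members stayed within the threshold, among them *tsc22d3* at 1.42 and 1.45 (1.54 and 1.67 with median-centred ratios) and *per1b* at 1.19 and 0.845. Tyrosine aminotransferase *tat*, a classical liver target, was at 0.704 and 1.04, and the receptor *nr3c1* at 0.893 and 0.796.

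Markers of tissues that could hold gluconeogenic cells are given here for each line. Of 9 measured liver markers 0 were at least 1.5-fold higher in *gsp* and 1 was lower (*rbp4*, 0.465), while 3 were higher in *rhs*, the fibrinogens *fga* (1.60), *fgb* (1.95) and *fgg* (1.57). With median-centred ratios 5 were higher in *rhs*. Over all rows, unscaled, 4.8% were higher and 4.34% lower in *gsp*, and 6.14% were higher in *rhs*. The list was chosen with earlier results of these data known, so nothing is read from these counts. The summed estimated count of the liver list was 991471 in the *gsp* sibling, 769472 in the *gsp* mutant, 949165 in the *rhs* sibling and 1172779 in the *rhs* mutant. It was therefore 0.776 times the sibling in *gsp* and 1.24 times in *rhs*. The row of apoa2 (*zgc:193613*) alone gave 623056 of the *gsp* sibling's sum, and 5 of the 9 markers had ratios above 1 in *gsp*, so that the list median there was 0.00 on the log2 scale. *fabp10a*, the defining marker of hepatocytes, was low, at 252 in the *gsp* sibling, 156 in the *gsp* mutant, 59.9 in the *rhs* sibling and 8.75 in the *rhs* mutant, and thus lower in both mutants.

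The yolk syncytial layer and intestine list was at 0.778 in *gsp* and 1.36 in *rhs* by its summed estimated count, with 2 of 8 lower in *gsp* (*fabp2* and *fabp1b.1*) and 0 past the threshold in *rhs*. With median-centred ratios 1 was lower in *gsp* and 3 were higher in *rhs*. The pronephric list was at 1.16 and 0.823, the ionocyte list at 0.844 and 1.42 and the endocrine pancreas list at 1.30 and 1.05. Single members carried some of these sums in *gsp*: of the 5 measured pancreas genes *sst2* was at 2.90 and the other 4 were below 1 (list median -0.15 on the log2 scale), and *ca2*, at 0.713, held much of the ionocyte sum, whose list median was 0.02. Of 9 ionocyte markers 3 were at least 1.5-fold higher in *rhs* (7 with median-centred ratios) and 1 in *gsp*. Over all rows, unscaled, 4.8% were higher and 4.34% lower in *gsp*, and 6.14% were higher and 11.6% lower in *rhs*. With median-centred ratios 1328 of the 13633 rows were higher in *rhs*, against 837 unscaled, and 357 were lower in *gsp*, against 591. Nothing about these tissue lists is read from the counts. The part of any of these tissues in the values of the gluconeogenesis genes was not tested.

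The genes whose pattern over the 4 libraries was most like each of the 5 were found by the distance between log2 values, each centred on its own mean. Of the 13633 rows only those with a gene name could be listed. Symbols that hold a colon or begin with LOC, MGC or flj were left out, so nearer rows may exist among them. With 4 libraries this is a description. For *pck1* the nearest were *elovl7b* (distance 0.34), *cebpd* (0.54), *cebpb* (0.61), *f2rl1.2* and *ptgs2b* (both 0.65). *elovl7b*, a fatty acid elongase, had ratios of 4.79 and 10.6 and siblings 1.65-fold apart in the same direction as *pck1*. For *g6pca* the nearest were the tight junction gene *oclna* (0.08), *pglyrp5*, *cx34.4* (0.11), *f3a* (0.15) and *rgs2* (0.18), and *oclna* had ratios of 1.80 and 2.72. *g6pca* was further from its neighbour *si:ch211-215l11.5* (0.61) than from these.

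For *pck2* the nearest were *plxnb2a*, *coro1a*, *fam129ba*, *actn4* and *atp6v0a1a*, all within 0.05, with ratios between 1.20 and 1.22 in *gsp* and between 1.23 and 1.30 in *rhs*. For *fbp1a* they were *rfc3*, *rnaseh2a*, *rfc4*, *dut* and *slc48a1b*, the first 4 being genes of DNA replication and nucleotide metabolism. For *fbp1b* they were *hs3st3b1a*, *cdc7*, *scinla*, *gamt* and *ccdc69*. No gluconeogenesis gene was among the 5 nearest of another. *pck1* and *g6pca* lay 2.02 apart, and *fbp1a* and *fbp1b* 0.47.

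The ratios of *pck1* and *g6pca* kept their direction under each of 8 other scalings, pseudocounts and controls. *pck1* had a range of 5.92 to 10.6 in *gsp* and one of 7.46 to 14.8 in *rhs*. *g6pca* ranged from 1.73 to 2.47 and from 2.02 to 3.03, above 1.5-fold throughout. *pck2* stayed between 1.23 and 1.34 and between 1.25 and 1.44. Against the sibling of the other line, *fbp1b* reached 0.579 in *gsp* and 1.82 in *rhs*, and the ratio of *pck1* moved most.

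**Figure D4:**
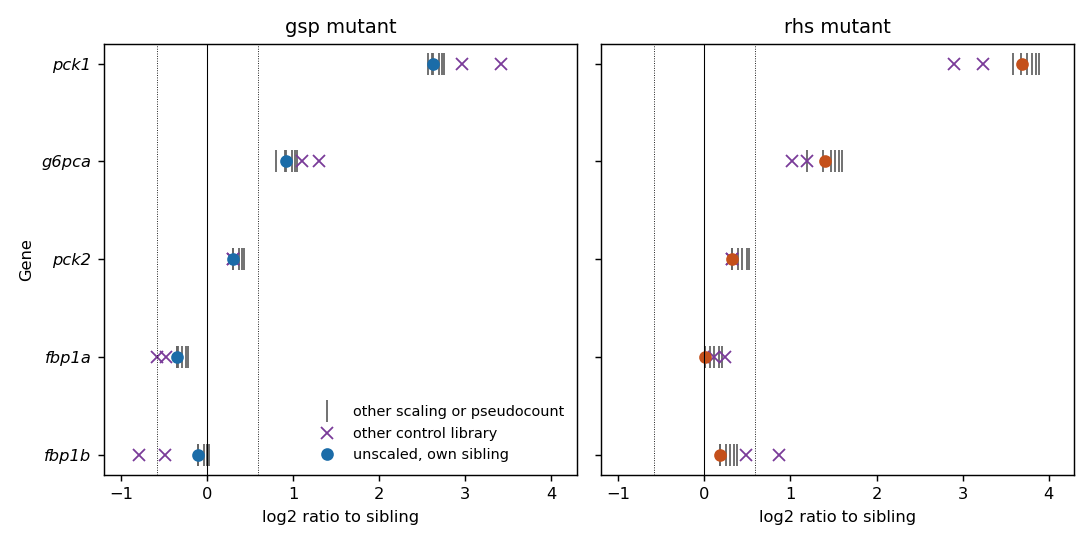
Log2 ratio of mutant to sibling for the 5 measured genes in *gsp* (left) and *rhs* (right), with the unscaled ratio to the own sibling as a filled circle, 4 scalings and 2 pseudocounts as ticks and other controls as crosses; dotted lines mark 1.5-fold. *pck1* and *g6pca* lie right of the threshold in all settings, and the crosses of *pck1* and *fbp1b* lie farthest from the circles.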

How the data were processed

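RNA was sequenced from whole embryos (48 hpf), giving 4 libraries. Per the paper's methods, reads were trimmed, aligned with TopHat and valued with DEGseq, and the labels name danRer7. The authors deposited estimated counts per transcript in columns headed raw, which the paper calls RPKM although the totals of over 106188690 go against that unit. Strand use and the handling of shared reads are not given in the sources used here. The authors also deposited normalized log2 values, recomputed here from the raw columns, and used as an alternative. Tables of the authors' own ratios were not used.

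Ratios of mutant to sibling were taken on unscaled estimated counts for rows with at least 100 in each library. The threshold of 1.5-fold is the study's 1.48-fold rounded. Intervals (95%, exact Clopper-Pearson, on rounded values) cover counting error only and understate it where copies of a molecule were counted. No test was run, as each group has 1 library. Transcript length cancels from a ratio within a transcript. A unit scaled by library size would change the ratio, and division by the library total is among the alternatives.

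The members, the 7 pathway lists and the 6 marker lists were chosen with earlier results of these data known. Counts over them are a description, and nothing is read from setting them beside the shares of all rows. Named genes are the members, and up to 4 per list with the largest mean log2 ratio and up to 2 with siblings at least 2-fold apart. The 5 nearest patterns per member, among rows without a clone or LOC name, were named too. Others were named after their values were seen. Among them are genes past the threshold in a short count, *ckma*, *mylz2*, the neighbours of a member, members of *slc37a4*, *slc2a2*, *pcl*, *fabp10a*, *tat*, *tsc22d3*, *nr3c1*, the leptins and insulin. Gene names came from RefSeq, in which 22434 of the 27423 identifiers were found. Alternatives were 4 scalings (median-centred, TMM, library total, the authors' normalized columns), pseudocounts of 10 and 100, other minima, a 2-fold threshold, the filters of the study and other controls. The ratio and interval code was tested on simulated data with 200 changed rows. Python 3.11.15, pandas 2.3.3, scipy 1.17.1 and edgeR 4.0.16 were used. No sequence of the genes was used here.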

Additional observations from a re-analysis of the deposited data

Results flagged for a closer look

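The responses of *fbp1a* and *fbp1b* lay on opposite sides of 1 in the 2 lines. The ratio of *fbp1a* was 1.28 times as large in *rhs* as in *gsp*, with 0.782 in *gsp* and 1.002 in *rhs*. That of *fbp1b* was 1.22 times as large, with 0.928 in *gsp* and 1.13 in *rhs*. Neither difference between the lines was tested, since each group has 1 library. For *fbp1a* the *rhs* ratio holds 1 within its counting interval (0.962 to 1.04). For *fbp1b* the *gsp* ratio was 1.0003 with median-centred values and 1.01 after division by the library total, so that its direction in *gsp* did not hold under those scalings.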

How the results depend on the processing

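Under the alternatives the number of gluconeogenesis genes at least 1.5-fold higher was 2 in both lines, with these exceptions. In *gsp* it was 1 with a 2-fold threshold (*pck1*). With both filters of the study it was 1 in *gsp* and 1 in *rhs* (*g6pca*), because the filter on siblings removes *pck1*. With the sibling of the other line as the control it was 3 in *rhs* (*fbp1b* added), and the number lower in *gsp* went from 0 to 2 (*fbp1a* and *fbp1b*). The number with siblings apart went from 2 to 0 with a 2-fold threshold and, by construction, to 0 with both filters. Counting *si:ch211-215l11.5*, an alternative chosen after seeing the data, gave 3 and 3. No ratio of a mutant changed its side of 1 other than that of *fbp1b* in *gsp*. Over all 13633 rows the split moved with the scaling: median-centred ratios gave 862 higher and 357 lower in *gsp* (654 and 591 unscaled) and 1328 and 636 in *rhs* (837 and 1586 unscaled). A fit of genotype blocked by line was not run: it would have 1 residual degree of freedom and would take the different mutations for replicates. Counting error was small for the 5 measured genes, the floor value of *g6pcb* is not shown to come from depth or from low expression, and no spread between embryos or clutches can be estimated.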
